A study of Mus musculus with 6 samples.

Results

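The transcription factors Runx1, Myb, Gfi1, Gfi1b, Ikzf1, Mecom, Hhex, Bcl11a and Meis1, and Cbfb, the partner subunit of Runx1, were followed in mouse Flk1+ mesoderm with and without the transcription factor Scl (gene Tal1). The members were all probe sets whose single annotated symbol was one of these 10 genes: 28 of the 34958 probe sets with 1 symbol, in a table of 45101. By gene they numbered 6 for Runx1, 1 for Cbfb, 3 for Myb, 1 each for Gfi1, Gfi1b and Hhex, 2 for Ikzf1, 3 for Mecom, 7 for Bcl11a and 3 for Meis1. Mouse embryonic stem (ES) cells were grown into embryoid bodies, floating aggregates in which early germ layers form, and on day 4 cells carrying the receptor Flk1 (gene Kdr) were sorted and their total RNA put on 6 Affymetrix arrays, 2 per group. The SclKO group was a line lacking Scl, derived from J1 cells of strain 129S4/SvJae and sorted on Flk1 alone. The WT Scl+ and WT Scl- groups came from 1 other line, with human CD4 knocked in at Scl as a reporter, derived from R1 cells of the cross (129/Sv x 129/Sv-CP)F1. WT Scl+ cells were Flk1+hCD4+ and WT Scl- cells Flk1+hCD4-. Knockout, ES line and sorting gate cannot be told apart in either comparison of SclKO with WT cells, and the WT groups carry the reporter, which SclKO is not labelled as carrying. The labels do not say whether replicates were separate cultures, and the p-values may thus reflect technical spread alone.

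Runx1 binds DNA as core-binding factor together with Cbfb, which steadies that binding, and it is needed for the first definitive blood cells to arise from endothelium in the embryo. Scl acts earlier, and without it neither primitive nor definitive blood forms. Gfi1 and Gfi1b are zinc finger repressors switched on by Runx1 that silence endothelial genes in the emerging blood cells. Myb keeps definitive progenitors dividing and is dispensable for primitive red cells. Ikzf1 is a zinc finger factor of lymphoid and early blood cells, Mecom (also called Evi1) a factor of blood stem cells, and Hhex a homeobox factor of blood and endothelial precursors and of endoderm. Bcl11a represses embryonic and fetal globin genes and serves B cells, and Meis1 is a homeobox partner of Hox and Pbx proteins in stem cells.

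The start regions of Runx1, of Myb and Ikzf1, whose differences were the widest, of Hhex, and of Bcl11a, which differed the other way, are shown. They are RefSeq windows of assembly GRCm38.p6, from 250 bases before to 50 bases after a start, and all 10 genes matched at least 1 of them (14 windows in all). Capitals mark the letters searched for on both strands: CAGATG and CAGCTG, E-boxes of the kind that Scl binds with its partners, AGATAA for GATA factors, TGTGGT for RUNX proteins and CAGGAAG for ETS factors. Runx1 lies on the minus strand and has a distal start, in chr16:92826025-92826324, and a proximal one, in chr16:92697280-92697579.
Runx1 distal start: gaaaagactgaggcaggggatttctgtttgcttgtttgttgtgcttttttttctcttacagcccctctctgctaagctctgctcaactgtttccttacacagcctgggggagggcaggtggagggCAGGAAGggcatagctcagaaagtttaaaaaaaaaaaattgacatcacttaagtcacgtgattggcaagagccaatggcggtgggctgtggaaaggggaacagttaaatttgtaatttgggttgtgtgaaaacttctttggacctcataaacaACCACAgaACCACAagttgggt
Runx1 proximal start: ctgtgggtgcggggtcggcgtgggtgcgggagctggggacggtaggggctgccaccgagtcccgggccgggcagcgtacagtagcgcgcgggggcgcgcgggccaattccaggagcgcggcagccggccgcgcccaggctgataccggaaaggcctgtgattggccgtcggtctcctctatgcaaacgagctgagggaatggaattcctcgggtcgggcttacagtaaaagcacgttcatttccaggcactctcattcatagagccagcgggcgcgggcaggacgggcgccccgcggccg
The Myb window is chr10:21160935-21161234 on the minus strand, and the second of the Ikzf1 windows is chr11:11689927-11690226 on the plus strand.
Myb: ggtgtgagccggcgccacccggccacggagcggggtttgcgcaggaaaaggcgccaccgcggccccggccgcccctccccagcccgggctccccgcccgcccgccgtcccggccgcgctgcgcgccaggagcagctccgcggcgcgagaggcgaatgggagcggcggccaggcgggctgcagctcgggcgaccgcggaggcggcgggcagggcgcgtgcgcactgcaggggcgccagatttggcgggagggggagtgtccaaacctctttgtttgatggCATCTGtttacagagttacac
Ikzf1, second start: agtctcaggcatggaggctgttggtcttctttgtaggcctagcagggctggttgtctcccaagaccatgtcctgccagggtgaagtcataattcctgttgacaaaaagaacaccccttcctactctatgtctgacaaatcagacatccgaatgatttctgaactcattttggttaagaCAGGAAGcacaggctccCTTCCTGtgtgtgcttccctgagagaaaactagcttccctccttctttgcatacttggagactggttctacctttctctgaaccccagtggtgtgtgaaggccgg
The Hhex window is chr19:37434591-37434890 and the Bcl11a window chr11:24080445-24080744, both on the plus strand.
Hhex: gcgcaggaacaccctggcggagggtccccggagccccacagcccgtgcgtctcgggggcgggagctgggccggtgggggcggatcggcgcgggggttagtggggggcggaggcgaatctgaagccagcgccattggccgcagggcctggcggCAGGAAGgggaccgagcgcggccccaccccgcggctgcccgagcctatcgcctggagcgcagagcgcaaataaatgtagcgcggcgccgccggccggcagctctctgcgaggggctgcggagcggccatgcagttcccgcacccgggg
Bcl11a: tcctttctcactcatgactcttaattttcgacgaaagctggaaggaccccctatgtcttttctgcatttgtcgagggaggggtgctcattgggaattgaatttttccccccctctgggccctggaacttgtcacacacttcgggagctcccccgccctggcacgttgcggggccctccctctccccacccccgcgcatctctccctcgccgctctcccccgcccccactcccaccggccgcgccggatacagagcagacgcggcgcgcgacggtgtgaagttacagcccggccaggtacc

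The distal Runx1 window held the RUNX letters at 29 and 37 bases after the start, read on the other strand, and the ETS letters at -125. The Myb window held 1 CAGATG, read on the other strand, at 30. The second Ikzf1 window held the ETS letters at -72 and -55, and the Hhex window at -98. Of the windows not shown, the second of Gfi1 held the ETS letters at -108, the first of Mecom CAGATG at -57, both read on the other strand, and that of Meis1 the RUNX letters at -166. The proximal Runx1 window and the Bcl11a window held none of the 5 sets of letters. Among all 14 windows of the 10 genes, CAGATG was in 2, CAGCTG and AGATAA in 0, TGTGGT in 2 and CAGGAAG in 4. Of all 32851 windows in the table, 17.2% held CAGATG, 16.3% CAGCTG, 11.2% AGATAA, 16.8% TGTGGT and 13.3% CAGGAAG. A match is a run of letters, not a bound site, and these short windows hold no distant enhancer.

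Levels are natural logs of the deposited values, and differences are in log units, the first-named group minus the second. The base of the deposited values is not stated. A difference of 1 log unit is 2-fold if these logs are RMA values in log2, and 2.72-fold of the deposited values as they stand. Folds are given in that order. Between 1040 and 1153 deposited values per array exceeded the scanner's ceiling, so the deposited values cannot be scanner intensities. The second fold is thus a ratio of deposited values and not of intensities. Values under their array's 40th percentile, which lay between 4.54 and 4.59, give no exact level, and a fold "with dim values set to the limit" is a lower bound for that probe set. The lead probe set of a gene is the one with the highest mean over the 6 arrays. A probe set was tested where it exceeded the limit on at least 2 arrays, which 24 of the 28 did. The exceptions were 2 probe sets each of Mecom and Meis1. Mecom 1438325_at and Myb 1422734_a_at passed that filter through the WT Scl+ arrays alone, so they had to differ. They are left out of the counts at an unadjusted p and of groups that do not overlap, which leaves 22. The same was done for all probe sets (28114). Gfi1 1417679_at and Myb 1450194_a_at also needed a WT Scl+ array to pass, and Bcl11a 1453814_at a SclKO array. These stay in the counts, so selection by the filter is not fully removed. Levels are not compared between probe sets or genes.

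Tal1, the targeted gene, was at 5.71 and 6.14 in SclKO, 8.65 and 8.78 in WT Scl+ and 6.52 and 7.97 in WT Scl-. WT Scl- replicate 2 was thus closer to WT Scl+ in Tal1 than replicate 1 was. The sources used here do not place its probes relative to the deletion. The sorted receptor's gene Kdr lay between 10.83 and 11.35 on all 6 arrays. WT Scl+ replicate 2 stood apart, at -78.4 on a first principal component with 53.2% of the variance, against -11.5 to 38.1 for the other arrays. It correlated with WT Scl+ replicate 1 at r = 0.9637 across probe sets, which are not independent. WT Scl+ replicate 1 correlated more closely with every array of the other groups, at r = 0.9725 to 0.9837. Over all 28363 probe sets tested, limma called 3 in SclKO versus WT Scl+, and the count ran from 0 to 1172 when 1 array was left out, the highest being without WT Scl+ replicate 1 (871 higher and 301 lower). It was 0 without SclKO replicate 1 or 2 and 27 without WT Scl- replicate 1 or 2. The same 3, none of them a member, were called in SclKO versus WT Scl-, and 0 there without any 1 SclKO or WT Scl- array. In WT Scl+ versus WT Scl- 0 were called, and 46 without WT Scl+ replicate 1.

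Runx1, Myb, Gfi1, Gfi1b, Ikzf1, Mecom and Hhex had lower levels in SclKO than in WT Scl+ on all 15 of their tested probe sets, with no overlap of the arrays, though for 2 of the 15 the filter itself required it, and Bcl11a had higher levels on all 7 of its probe sets. None of these differences passed over all probe sets tested. Of the 24 tested probe sets, 0 were called in SclKO versus WT Scl+ at an adjusted p under 0.05 (limma, lowest adjusted p = 0.110), where 0.0106% of all probe sets tested were. At an unadjusted p under 0.05, 6 of the 22 were higher in SclKO and 12 lower, where 7.22% of all 28114 were higher and 5.43% lower. The groups did not overlap for 8 that were higher and 14 that were lower, against 24.3% and 17.9% of all. Meis1 1459423_at is among the 14, but both its SclKO arrays were under the limit, so its order against WT Scl+ is not settled. Over all 28 probe sets, tested or not, the median difference was -0.53 log units, against 0.015 over the 45037 probe sets that are no controls. All 6 that were higher at an unadjusted p under 0.05 are probe sets of Bcl11a. Probe sets of the same gene read the same RNA and are not independent, here and in the other comparisons. Counted on lead probe sets at that p, 1 of the 10 genes was higher and 7 were lower, Mecom among them through the filter. Of all 12922 tested genes, 6.61% were higher and 6.24% lower.

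In SclKO versus WT Scl-, 0 of the 24 were called (limma, lowest adjusted p = 0.886), where 0.0106% of all were. At an unadjusted p under 0.05, 0 of the 22 were higher and 3 lower, where 2.56% and 2.67% of all were; the groups did not overlap for 4 higher and 8 lower, against 21.5% and 19.4% of all. In WT Scl+ versus WT Scl-, 0 of the 24 were called (limma, lowest adjusted p = 0.439), where 0% of all were. At an unadjusted p under 0.05, 10 of the 22 were higher in WT Scl+ and 4 lower, where 4.2% and 4.83% of all were; the groups did not overlap for 13 higher and 6 lower, against 16.3% and 21.1%. The median difference over all 28 was -0.10 log units in SclKO versus WT Scl- and 0.39 in WT Scl+ versus WT Scl-. In a test for any difference among the 3 groups, 0 of the 24 passed (moderated F, lowest adjusted p = 0.219), where 0.0106% of all did, and 17 of the 22 had an unadjusted p under 0.05, where 9.62% of all did. The comparisons share arrays, so they are not independent of each other. In sorted bulk RNA, fewer cells expressing a gene and less of its RNA per cell cannot be told apart.

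**Figure D1:**
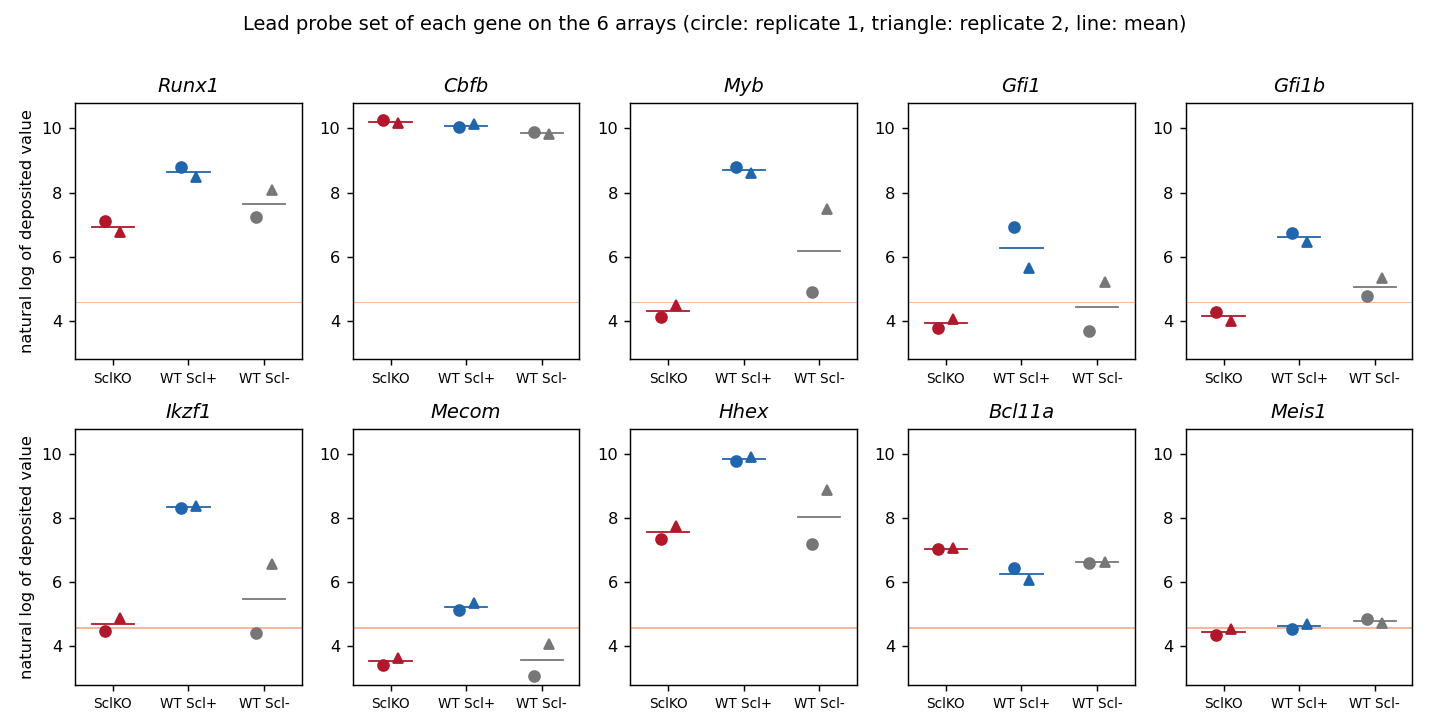
Natural-log level of the lead probe set of each of the 10 genes on the 6 arrays. Circles are replicate 1, triangles replicate 2, short lines group means, and the pale band spans the arrays' limits for dim probe sets (4.54 to 4.59). In 8 genes the WT Scl+ arrays lie above the SclKO arrays. Meis1 is among them, with a narrow gap and both SclKO arrays under the limit, so its order is not settled. Points under the band have no order among themselves. Myb shows the widest gap, at 4.10 and 4.48 in SclKO and 8.80 and 8.62 in WT Scl+. Bcl11a and Cbfb show the opposite order, Cbfb by 0.12 log units.

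Runx1, the DNA-binding subunit of core-binding factor, was at 7.10 and 6.78 in SclKO, 8.79 and 8.47 in WT Scl+ and 7.23 and 8.08 in WT Scl- (lead probe set 1422864_at). All these values are above the limit, and the SclKO arrays were the lowest and the WT Scl+ arrays the highest with no overlap. Between SclKO and WT Scl+ the difference was -1.69 log units (SE 0.31, limma, adjusted p = 0.152), 3.23-fold or 5.43-fold lower. Between WT Scl+ and WT Scl- the difference came to 0.98 log units (SE 0.31, limma, adjusted p = 0.472), and 0.55 without WT Scl- replicate 1. Between SclKO and WT Scl- the difference came to -0.72 log units (SE 0.31, limma, adjusted p = 0.898), -1.14 without WT Scl- replicate 1 and -0.29 without replicate 2. The 6 Runx1 probe sets went the same way in SclKO versus WT Scl+ but not by the same amount. Their differences were -1.69, -1.61 and -1.05 log units on 1422864_at, 1422865_at and 1440878_at, and -0.73, -0.59 and -0.48 on 1427650_a_at, 1452531_at and 1452530_a_at. Whether a probe set reads transcripts from the distal or the proximal start cannot be taken from the sources used here.

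Cbfb, which binds no DNA by itself and is found in most tissues, was at 10.25 and 10.17 in SclKO, 10.05 and 10.13 in WT Scl+ and 9.90 and 9.81 in WT Scl-. Its values spanned 0.44 log units in all, the groups ranking SclKO, WT Scl+, WT Scl-. In SclKO versus WT Scl+ the difference was 0.12 log units (SE 0.15, limma, adjusted p = 0.767), 1.09-fold or 1.13-fold. The WT Scl- arrays were lowest, with differences of 0.35 for SclKO versus WT Scl- and 0.24 for WT Scl+ versus WT Scl- (SE 0.15 each; limma, adjusted p = 0.898 and 0.688). The difference between SclKO and WT Scl+ had the opposite sign to that of its partner Runx1; whether the 2 genes differ was not tested.

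Myb had the largest difference of the 10 genes in SclKO versus WT Scl+. The suffix of its lead probe set, 1421317_x_at, marks probes that may also match other transcripts. Myb was there at 4.10 and 4.48 in SclKO, both under the limit, at 8.80 and 8.62 in WT Scl+ and at 4.88 and 7.47 in WT Scl-. The WT Scl- arrays lay 2.59 log units apart, with replicate 1 near SclKO and replicate 2 nearer WT Scl+. Relative to WT Scl+, SclKO differed by -4.42 log units (SE 0.76, limma, adjusted p = 0.148), with dim values set to the limit at least 17.7-fold or 63.1-fold lower. With only these 2 groups fitted, or without either WT Scl- array, which for this comparison is the same fit, the difference was called (limma, adjusted p = 0.025). In WT Scl+ versus WT Scl- the difference came to 2.53 log units (SE 0.76, limma, adjusted p = 0.465), 1.24 without WT Scl- replicate 1 and 3.83 without replicate 2. In SclKO versus WT Scl- the difference came to -1.89 log units (SE 0.76, limma, adjusted p = 0.898), -3.18 without WT Scl- replicate 1 and -0.59 without replicate 2. The other Myb probe sets, 1450194_a_at and 1422734_a_at, gave -4.59 and -3.87 log units in SclKO versus WT Scl+, and both SclKO arrays were under the limit on each.

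Gfi1 was at 3.76 and 4.06 in SclKO, 6.92 and 5.63 in WT Scl+ and 3.68 and 5.20 in WT Scl-. Both SclKO arrays and WT Scl- replicate 1 were under the limit, and the WT Scl+ arrays lay 1.29 log units apart. The difference of SclKO from WT Scl+ came to -2.36 log units (SE 0.59, limma, adjusted p = 0.223), with dim values set to the limit at least 3.28-fold or 5.54-fold lower. It was -3.01 without WT Scl+ replicate 2 and -1.72 without replicate 1. Relative to WT Scl-, WT Scl+ differed by 1.84 log units (SE 0.59, limma, adjusted p = 0.473), and 1.08 without WT Scl- replicate 1. Relative to WT Scl-, SclKO differed by -0.52 log units (SE 0.59, limma, adjusted p = 0.983), and without WT Scl- replicate 2 all arrays of both groups are under the limit and have no order.

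Gfi1b, the close relative of Gfi1 that serves red cells and megakaryocytes, was at 4.27 and 4.00 in SclKO, 6.74 and 6.46 in WT Scl+ and 4.76 and 5.33 in WT Scl-. No groups overlapped, and the order was WT Scl+, WT Scl-, SclKO, with both SclKO arrays under the limit. Between SclKO and WT Scl+ the difference was -2.47 log units (SE 0.25, limma, adjusted p = 0.110), the lowest adjusted p of any member, with dim values set to the limit at least 4.11-fold or 7.67-fold lower. It was called with a trended and robust prior (limma, adjusted p = 0.0365) and without WT Scl+ replicate 1 (-2.33 log units, limma, adjusted p = 0.0381). In the last fit WT Scl+ is 1 array, replicate 2, which stood apart on the first principal component, its spread is taken from the other groups, and 1172 probe sets are called in all. The difference of WT Scl+ from WT Scl- came to 1.56 log units (SE 0.25, limma, adjusted p = 0.439) and SclKO minus WT Scl- -0.91 (SE 0.25, limma, adjusted p = 0.886). Leaving out WT Scl- replicate 1 or 2 moved the last to -1.20 or -0.62.

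Ikzf1 was at 4.49 and 4.88 in SclKO, 8.31 and 8.38 in WT Scl+ and 4.41 and 6.58 in WT Scl- (1436312_at). The WT Scl+ arrays lay within 0.1 of each other, while WT Scl- replicate 2 lay above both SclKO arrays. WT Scl- replicate 1 and SclKO replicate 1 were under the limit and have no order. In SclKO versus WT Scl+ the difference was -3.66 log units (SE 0.65, limma, adjusted p = 0.148), 12.6-fold or 38.9-fold lower as measured. With only these 2 groups fitted, or without either WT Scl- array, again the same fit, the difference was called (limma, adjusted p = 0.0296). Between WT Scl+ and WT Scl- the difference came to 2.85 log units (SE 0.65, limma, adjusted p = 0.439), 1.77 without WT Scl- replicate 1. The difference of SclKO from WT Scl- came to -0.81 log units (SE 0.65, limma, adjusted p = 0.961), and 0.28 without WT Scl- replicate 2, a value that rests on dim arrays. A second Ikzf1 probe set, 1421303_at, was at 5.03 and 4.42 in SclKO, 5.74 and 7.20 in WT Scl+ and 4.91 and 5.75 in WT Scl-. It gave -1.75 log units in SclKO versus WT Scl+ (SE 0.53, limma, adjusted p = 0.284), a smaller difference in the same direction.

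Hhex was at 7.37 and 7.77 in SclKO, 9.79 and 9.92 in WT Scl+ and 7.19 and 8.87 in WT Scl-, all above the limit. Relative to WT Scl+, SclKO differed by -2.29 log units (SE 0.52, limma, adjusted p = 0.197), 4.88-fold or 9.85-fold lower. In WT Scl+ versus WT Scl- the difference came to 1.83 log units (SE 0.52, limma, adjusted p = 0.447), and 0.99 without WT Scl- replicate 1. SclKO and WT Scl- overlapped, at -0.46 log units (SE 0.52, limma, adjusted p = 0.983) and 0.38 without WT Scl- replicate 2. Hhex is also an endoderm gene: the mean level of 13 endoderm markers was 5.10 and 5.19 in SclKO, 5.46 and 5.24 in WT Scl+ and 4.96 and 5.08 in WT Scl-. Those means differed by under 0.5 log units over the 6 arrays. Of the 13 markers, 9 had a positive and 4 a negative difference in SclKO minus WT Scl+, with a median of 0.13. The part of endoderm in the Hhex values was not tested.

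Mecom was at 3.42 and 3.65 in SclKO, 5.13 and 5.35 in WT Scl+ and 3.08 and 4.07 in WT Scl- (1438325_at), above the limit in WT Scl+ alone. The difference of SclKO from WT Scl+ came to -1.70 log units as measured (SE 0.33, limma, adjusted p = 0.166), with dim values set to the limit at least 1.60-fold or 1.96-fold lower. Relative to WT Scl-, WT Scl+ differed by 1.67 log units (SE 0.33, limma, adjusted p = 0.439), with dim values set to the limit at least 1.58-fold or 1.93-fold higher. SclKO and WT Scl- were both under the limit and are not ranked; their difference of -0.04 log units was 0.46 without WT Scl- replicate 2 and 0.08 without SclKO replicate 1. The other Mecom probe sets, 1423011_at and 1422295_at, were under the limit on all 6 arrays.

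Meis1 was near the limit everywhere, and under it on both SclKO arrays. Its lead probe set 1459423_at was at 4.37 and 4.53 in SclKO, 4.54 and 4.71 in WT Scl+ and 4.86 and 4.72 in WT Scl-. Between SclKO and WT Scl+ the difference came to -0.18 log units as measured (SE 0.17, limma, adjusted p = 0.677) and -0.06 with dim values set to the limit. Relative to WT Scl- it was -0.34 as measured (SE 0.17, limma, adjusted p = 0.911) and -0.23 at the limit. The other Meis1 probe sets were under the limit on 6 arrays (1443260_at) and on all but WT Scl+ replicate 2 (1450992_a_at, at 4.70 there).

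Bcl11a had the opposite pattern, higher in SclKO than in WT Scl+ on all 7 of its probe sets. Cbfb was also higher, but by 0.12 log units. The lead probe set of Bcl11a, 1419406_a_at, was at 7.05 and 7.06 in SclKO, 6.46 and 6.08 in WT Scl+ and 6.61 and 6.63 in WT Scl-. No groups overlapped, and the order was SclKO, WT Scl-, WT Scl+. In SclKO versus WT Scl+ the difference was 0.79 log units (SE 0.18, limma, adjusted p = 0.202), 1.72-fold or 2.20-fold higher, and 0.98 without WT Scl+ replicate 1 (called, limma, adjusted p = 0.0452, with the spread of the lone WT Scl+ array taken from the other groups). On the other 6 probe sets the difference was between 0.56 and 1.96 log units. The largest was on 1457072_at, at 5.88 and 5.40 in SclKO, 3.73 and 3.62 in WT Scl+ and 5.62 and 5.39 in WT Scl-. Its difference from WT Scl+ reached 1.96 log units (SE 0.21, limma, adjusted p = 0.118), with dim values set to the limit at least 2.12-fold or 2.95-fold higher, and SclKO minus WT Scl- was 0.13. Against WT Scl-, the 7 probe sets gave between 0.001 and 0.71 log units, and 3 of them had no overlap with SclKO. The difference of WT Scl+ from WT Scl- came to -0.35 log units on the lead probe set (SE 0.18, limma, adjusted p = 0.626), -0.54 without WT Scl+ replicate 1 and -0.16 without replicate 2.

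Ikzf1, Bcl11a and Meis1 are genes of chromosome 11, where the median over tested genes was -0.146 log units in SclKO minus WT Scl+ and -0.154 in SclKO minus WT Scl-. On the 18 other autosomes these medians lay between 0.034 and 0.085, and between 0.012 and 0.060. On lead probe sets, SclKO minus WT Scl+ was -3.66 log units for Ikzf1 and 0.79 for Bcl11a. That of Meis1 rests on dim values. In WT Scl+ minus WT Scl- the median of chromosome 11 was -0.0097, inside the range of the other autosomes. The source of the chromosome's offset, and its part in the values of single genes, was not tested.

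**Figure D2:**
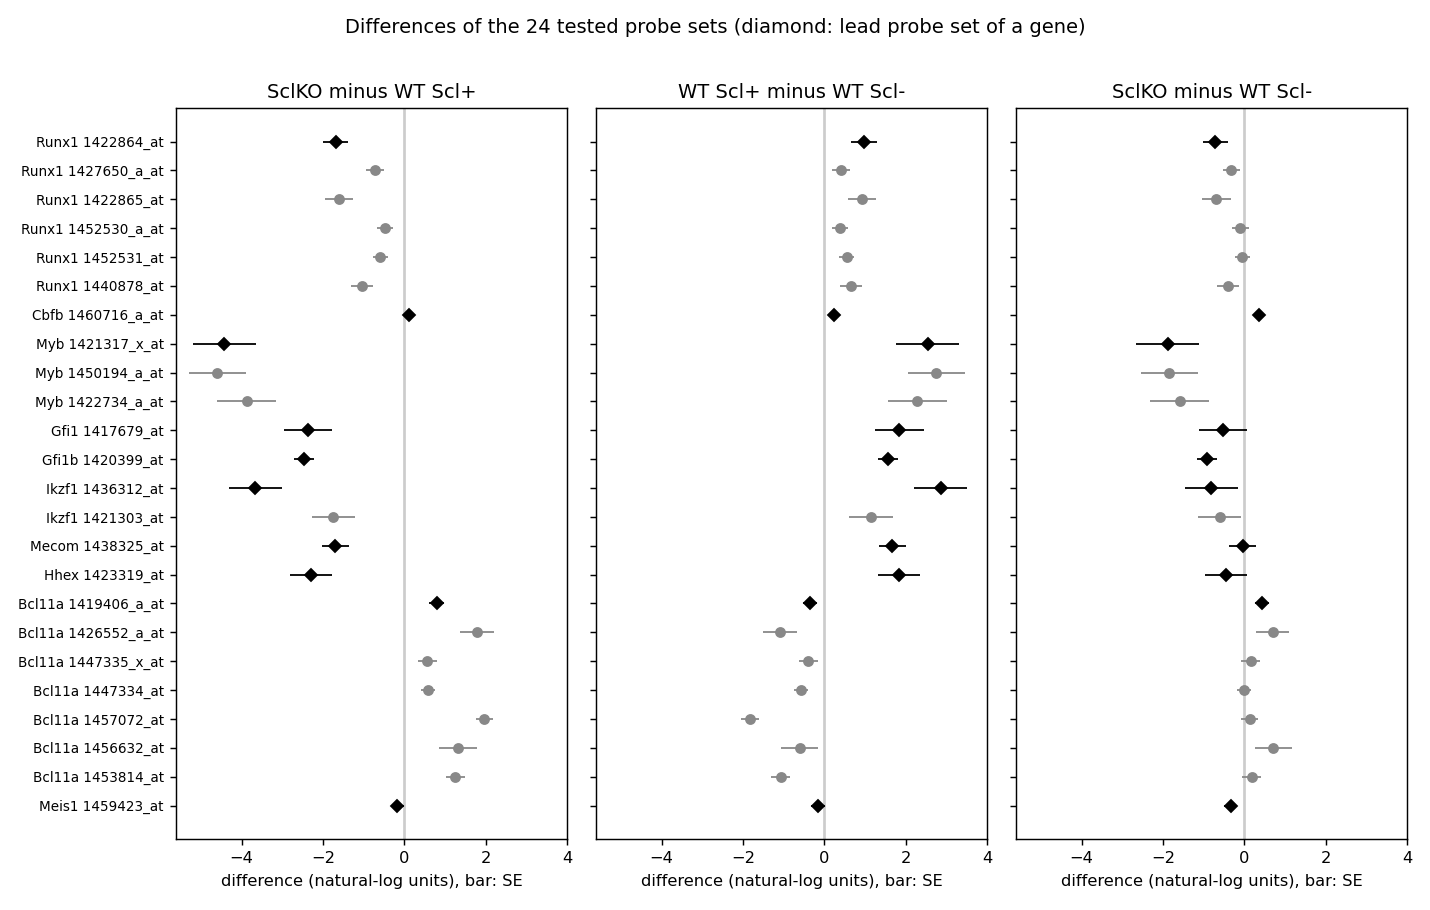
Differences of the 24 tested probe sets in natural-log units, with 1 panel per comparison; bars are the limma standard error and diamonds mark the lead probe set of a gene. In SclKO minus WT Scl+ the 15 probe sets of Runx1, Myb, Gfi1, Gfi1b, Ikzf1, Mecom and Hhex lie between -4.59 and -0.48, and the 7 of Bcl11a between 0.56 and 1.96.

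The WT Scl- arrays lay apart in most of these genes. Of the 15 tested probe sets of the 7 genes, 2 were under the limit on both WT Scl- arrays (Mecom 1438325_at and Myb 1422734_a_at), and on the other 13 replicate 2 was higher than replicate 1. Positions between the groups are given for probe sets of Tal1, Runx1, Hhex, Bcl11a and Cbfb where all 6 arrays were above the limit. On a scale where the SclKO mean is 0% and the WT Scl+ mean 100%, Tal1 itself was at 21.2% on WT Scl- replicate 1 and 73.3% on replicate 2. Runx1 was at 17.1% and 67.5% on these arrays and Hhex at -16.6% and 56.8%. On the 6 such probe sets of Runx1 and Hhex, replicate 2 lay at 41.6% to 73% and replicate 1 at -28.4% to 20.4%. Of the 3 of Bcl11a, replicate 2 had the higher percentage on 1, with 56.5% and 54% on its lead probe set. Cbfb, whose SclKO and WT Scl+ means differed by only 0.12 log units, was at 263% and 334%. The same was read on all 339 such probe sets at least 1 log unit lower in SclKO than in WT Scl+, of which 3 are members. Replicate 2 had the higher percentage for 91.7% of them, with medians of 4.74% and 57.1% for replicates 1 and 2. Their percentages reached 179% and 159%, so the higher one is not always nearer to the WT Scl+ mean. For the 394 at least 1 log unit higher, replicate 2 had the higher percentage for 82.5%, with medians of 14.7% and 39.2%. The part of the reporter gate or of Tal1 in this spread was not tested.

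**Figure D3:**
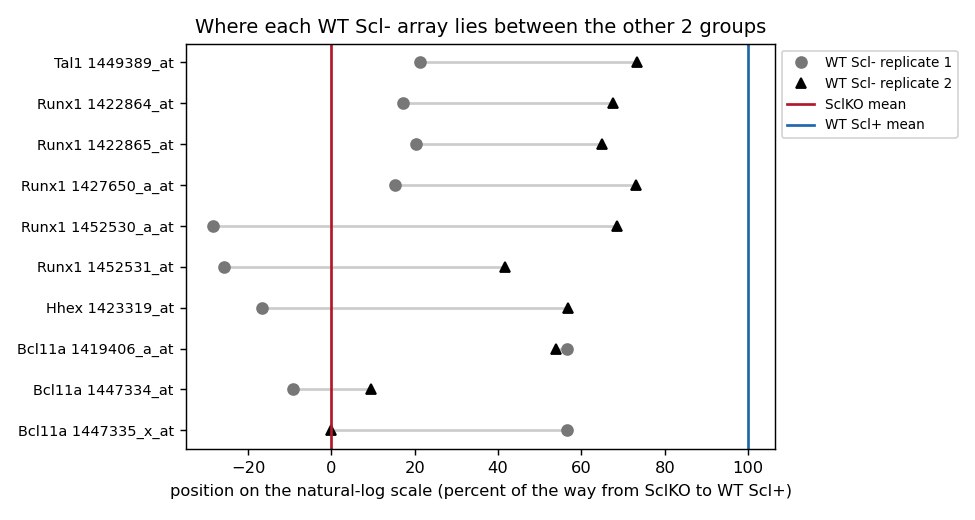
Position of each WT Scl- array on the natural-log scale, as a percentage of the way from the SclKO mean (0%) to the WT Scl+ mean (100%), for the probe sets of Tal1, Runx1, Hhex and Bcl11a above the limit on all 6 arrays. Circles are WT Scl- replicate 1 and triangles replicate 2. The triangles of Runx1 and Hhex lie right of their circles, between 41.6% and 73%, and those of Bcl11a on either side.

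Markers of other cell types differed along with these genes, although none was called. All 10 tested endothelial markers of 12 were lower in SclKO than in WT Scl+, and the mean level of the 12 was 5.17 and 5.92 in SclKO, 6.81 and 7.41 in WT Scl+ and 4.72 and 6.30 in WT Scl-. All 7 tested primitive erythroid markers of 9 were lower in SclKO, Hba-x having passed the filter through WT Scl+ alone, with mean levels of 4.52 and 4.66 in SclKO, 6.21 and 5.76 in WT Scl+ and 4.69 and 5.03 in WT Scl-. The adult globin gene Hba-a1 and the embryonic Hbb-y were under the limit on all arrays. The 11 macrophage and leukocyte markers averaged 4.69 and 4.95 in SclKO, 5.20 and 5.41 in WT Scl+ and 4.53 and 5.08 in WT Scl-, with Ptprc, Adgre1, Cd14 and Lyz2 under the limit on all arrays. The 8 megakaryocyte markers averaged 4.14 to 4.43 in SclKO, 4.41 to 4.77 in WT Scl+ and 4.32 to 4.39 in WT Scl-, with Ppbp, Pf4 and Gp5 under the limit throughout. In the other direction, 10 of 11 streak and early mesoderm markers were higher in SclKO, at mean levels of 8.92 and 8.82 in SclKO, 7.72 and 6.89 in WT Scl+ and 8.73 and 8.36 in WT Scl-. The 10 cardiac lineage markers averaged 7.17 and 6.74 in SclKO, 6.58 and 6.08 in WT Scl+ and 7.24 and 6.74 in WT Scl-. The 10 pluripotency markers averaged 7.25 and 7.12 in SclKO, 7.41 and 6.17 in WT Scl+ and 7.09 and 6.62 in WT Scl-, and the 8 neural markers lay between 5.57 and 5.82 on all 6 arrays. The part of a changed cell mixture in the members' values was not tested.

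Genes related to the members were read from 6 lists, of which 0 genes were called in any comparison. At an unadjusted p under 0.05, 6.61% of all 12922 tested genes were higher in SclKO than in WT Scl+ and 6.24% lower, counted on lead probe sets, and their median over all 18194 genes was 0.0099 log units. Of the 5 core-binding factor relatives and corepressors, 4 were measured and 1 was lower at that p, Cbfa2t3, a corepressor found in Scl complexes (-4.77 log units, SE 0.73, limma, adjusted p = 0.136). Runx3, a paralogue of Runx1, was at 5.96 and 5.54 in SclKO, 5.58 and 3.68 in WT Scl+ and 5.95 and 5.93 in WT Scl- (1.13 log units, limma, adjusted p = 0.472), and Cbfa2t2 differed by -0.25. The list's median was -0.06. Runx2 was not analysed here.

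Of 10 paralogues of the other members, 9 were tested, 2 were higher and 1 lower at an unadjusted p under 0.05, and the median of all 10 was 0.07 log units. Ikzf2, a relative of Ikzf1, was at 4.76 and 4.78 in SclKO, 6.96 and 6.51 in WT Scl+ and 4.13 and 5.73 in WT Scl- (-1.97 log units, limma, adjusted p = 0.223). Meis2 differed by 1.71 log units (limma, adjusted p = 0.212) and Meis3 by 0.69 (limma, adjusted p = 0.256). Of 22 measured cofactors, the enzymes, corepressors and Pbx partners through which the members act, 19 had a positive and 3 a negative difference, 2 were higher and 1 lower at an unadjusted p under 0.05, and the median was 0.16 log units. Pbx3, a partner of Meis and Hox proteins, differed by 0.98 log units, Rcor1, which joins Gfi1 and Gfi1b to the demethylase Kdm1a, by -0.60, and the corepressor Tle3 by 0.53. Kdm1a itself was at 11.19 and 11.14 in SclKO, 11.21 and 10.99 in WT Scl+ and 11.11 and 11.13 in WT Scl-.

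Of 10 genes known as Runx1 targets in blood cells, 5 were tested and 4 were lower in SclKO at an unadjusted p under 0.05. Spi1 is among the 4, but both its SclKO arrays were under the limit and it needed a WT Scl+ array to pass the filter. The other 5, Elane, Cebpa, Csf2, Il3 and Vav1, were not tested, and the median of all 10 was -0.19 log units. Mpo, an enzyme of granule-bearing myeloid cells, was at 4.34 and 5.24 in SclKO, 7.07 and 7.48 in WT Scl+ and 4.27 and 5.80 in WT Scl- (-2.48 log units, limma, adjusted p = 0.188). Nfe2, a factor of red cells and platelets, differed by -2.16 log units (limma, adjusted p = 0.190), and Itga2b (CD41), an early surface marker of blood commitment, by -1.77 (limma, adjusted p = 0.174). Csf1r, the tested target that was not lower at that p, differed by -0.15 log units with overlapping groups (limma, adjusted p = 0.795). Mpo and Csf1r are also on the macrophage list, and Itga2b on the megakaryocyte list.

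All 10 factors that bind beside Runx1 in blood progenitors had a negative difference, 5 at an unadjusted p under 0.05, and their median was -1.60 log units. The list includes Tal1 itself. Fli1, an ETS factor, was at 4.92 and 5.05 in SclKO, 8.06 and 9.07 in WT Scl+ and 4.63 and 7.28 in WT Scl- (-3.58 log units, limma, adjusted p = 0.202). Lyl1, the paralogue of Scl, differed by -3.47 log units as measured (limma, adjusted p = 0.135), and by -3.05 with its SclKO arrays, both dim, set to the limit, and the ETS factor Erg by -3.09 (limma, adjusted p = 0.255). Of 7 Hox genes of blood stem cells, 6 were tested, 2 with a positive and 4 with a negative difference. At an unadjusted p under 0.05, 2 were lower and 0 higher, and the median of all 7 was -0.20. Hoxb5 differed by -3.45 log units, Hoxb4 by -2.66 and their neighbour Hoxb3 by -0.50 (limma, adjusted p = 0.136, 0.118 and 0.640).

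**Figure D4:**
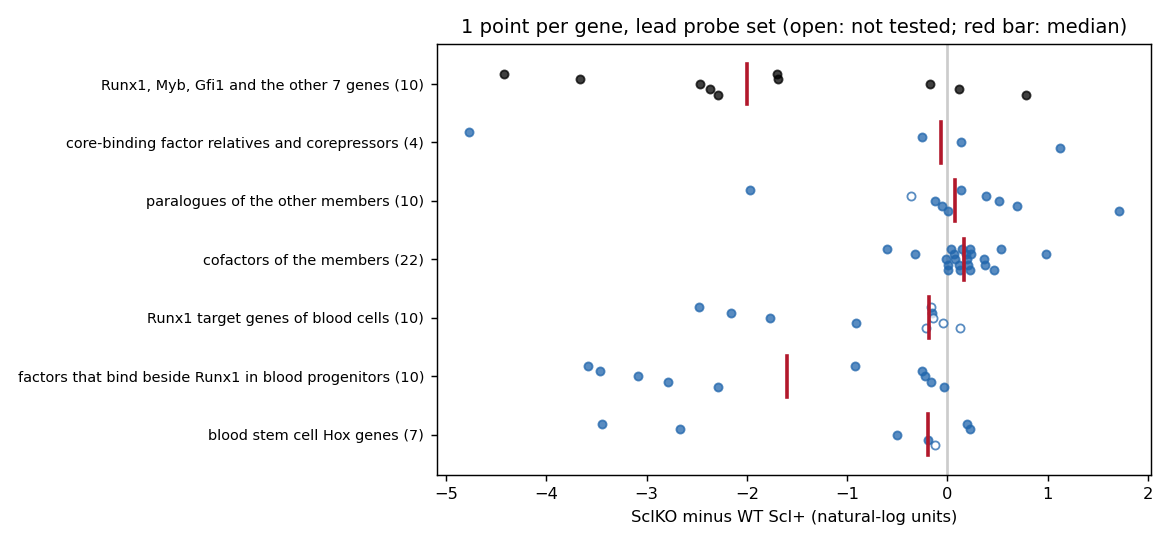
SclKO minus WT Scl+ in natural-log units for the lead probe set of each member and of each gene on 6 related lists, 1 point per gene. Open points were not tested and red bars are medians over all points of a line. The factors that bind beside Runx1 have a median of -1.60, and the cofactors, paralogues and core-binding factor relatives have medians between -0.06 and 0.16.

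The genes whose profiles were most alike were sought over 6 arrays among 12921 other tested genes, by the root mean square distance of profiles centred on their means. For Runx1 they were Pde4dip (0.095 log units), Myct1 (0.15) and Slc39a8 (0.16), where the median distance over all candidates was 0.78. For Myb they were Wnk4 (0.27), Tal2 (0.34), a paralogue of Scl, and Sox7 (0.41), against a median of 1.98. For Gfi1 they were Nfe2 (0.20), Reln (0.26) and Ikzf2 (0.32), against 1.19, and for Ikzf1 Atp2a3 (0.25), Calcrl (0.29) and Clic6 (0.32), against 1.72. For Hhex they were Gata2 (0.13), a factor of blood progenitors, Zfp711 (0.18) and Prkar2b (0.21), against 1.13. Those of the other members are not given. The points are 6 arrays of 3 groups, and the candidates share those arrays. Values under the limit, which have no order, entered the distances as measured, among them some of Gfi1, Myb and Ikzf1.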

How the data were processed

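RNA of 6 samples in 3 groups of 2, taken from the titles, was measured on 1-colour Affymetrix mouse arrays. Per the submitters' processing notes, the tools were affy, RMA and limma, without versions or order; RMA corrects background, quantile-normalises and summarises probe sets. The deposited values are a processed signal per probe set, not on a log scale and of unstated base: between 1040 and 1153 per array exceeded 65535, and their median per array was 180.6 to 190.5. No column of values was left unused (0). Arrays have no read depth, and their number limits the precision.

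Natural logs were taken and no further normalization was made. Symbols came from the platform annotation (34958 probe sets with 1 symbol, 932 with several, 9211 with none) and were updated through Entrez identifiers. The 64 control probe sets and those not above the array's 40th percentile on 2 arrays were left out, which left 28363. A mean per group was fitted with limma 3.58.1 in R 4.3.3 (lmFit, eBayes; residual degrees of freedom 3, prior 3.13), with two-sided tests and Benjamini-Hochberg adjustment over all 28363. The fit was tested on simulated data. Leaving probe sets above the limit in 1 group alone out of the counts, and giving positions only where all 6 arrays were above it, was chosen after the values were seen.

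Named were every member probe set, Tal1 and Kdr, the 3 tested genes of each of 6 related lists with the largest SclKO minus WT Scl+ difference, and the 3 most alike genes of 4 members; 9 lists of cell type markers were read as well. Kdm1a, marker genes under the limit, the remaining Runx1 targets and the 3 genes nearest to Hhex were named besides. The members, lists and tests were chosen with earlier results of these data known. Alternatives covered a replicate block, 2 other filters, 1 probe set per gene, 2 normalizations, the prior, fits of 2 groups and leaving out each array.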

Additional observations from a re-analysis of the deposited data

How the results depend on the processing

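Of 411 member differences recomputed under the alternatives, 397 kept their direction and their side of the threshold, 9 were now called and 5 turned. Leaving out either WT Scl- array repeats the fit of only SclKO and WT Scl+ for that comparison; counted once, 5 were now called. The turned ones were all SclKO minus WT Scl-: without WT Scl- replicate 2, Gfi1 0.24, Ikzf1 0.28, Mecom 0.46 and Hhex 0.38 log units (-1.28, -1.89, -0.53 and -1.30 without WT Scl- replicate 1), and without SclKO replicate 1, Mecom 0.08. In these turned fits all arrays of both groups were under the limit for Gfi1 and Mecom, and their sign has no meaning. Adjusted p for the calls lay between 0.025 and 0.0452. The probe sets called numbered 3 in SclKO versus WT Scl+, 3 in SclKO versus WT Scl-, 0 in WT Scl+ versus WT Scl- and 3 for any difference. With a trended and robust prior they numbered 32, 11, 0 and 11, and with 1 probe set per gene 1, 1, 0 and 1. A filter at the 60th percentile gave 6 in SclKO versus WT Scl-, and a fit of only the 2 groups gave 27 in SclKO versus WT Scl+. Leaving out 1 array gave 0 to 1172, 0 to 3, 0 to 46 and 0 to 7, and without WT Scl+ replicate 1 it gave 1172, 46 and 7 for all but SclKO versus WT Scl-. With a replicate block, SclKO versus WT Scl+ gave 6 and the others 3, 0 and 2. The replicate numbers are not said to pair the samples; deviations of same-numbered arrays from their group means correlated at 0.238, 0.205 and 0.212, and with 2 arrays per group this does not establish pairing. Groups of 2 leave 3 residual degrees of freedom, and values under the limit for dim probe sets have no order.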
